A study of Mus musculus with 12 samples.

Results

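The regions described here are stretches of dentate gyrus chromatin that were accessible in most E0 mice, had no accessibility peak in any E1 mouse and had a peak again in some E4 mice. They were chosen by the peak calls themselves: peaks of all 12 libraries on chromosomes 1 to 19 and X were merged where they shared 1 bp or more, and a merged region was a member if it had a peak in at least 3 of 4 E0 libraries, in 0 of 4 E1 libraries and in at least 2 of 4 E4 libraries. This gave 224 members among 170710 merged regions. Because the peak calls of all 3 groups chose the members, their pattern over the groups is a description with no test.

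The assay was ATAC-seq, in which a transposase cuts and tags open DNA and accessible sites appear as peaks of reads. Each library came from the microdissected dentate gyrus of an individual C57BL/6 mouse, given as adult and 8 weeks old, and the groups E0, E1 and E4 have 4 mice each. The labels carry no treatment or time and do not say what the group names stand for. In the published study E0 is before, E1 is 1 h after and E4 is 4 h after electroconvulsive stimulation, which is knowledge of that study and not of the labels. A microdissected sample holds several cell types, so fewer cells of a type and less accessibility per cell cannot be told apart. The genes beside the members and the cell type markers were not analysed here, since the lists are in mm9 and the gene and promoter tables at hand are in GRCm38. No sequence is shown for the same reason.

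The dentate gyrus is the entry station of the hippocampal circuit, and most of its neurons are granule cells, which are densely packed and seldom fire. When such neurons are strongly driven, immediate early genes are switched on, and their protein products bind promoters and distal enhancers elsewhere in the genome. Accessible sites mark such promoters, enhancers and insulators. A site can lose accessibility when the factors that hold nucleosomes away leave it, and gain it back when they return.

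The 12 lists differ in length, and an E4 library, E4 rep1, stands apart. It holds 104120 peaks. The remaining E4 lists hold 24426 to 34863, the E0 lists 36861 to 77130 and the E1 lists 64152 to 84776. Library depth is unknown, as the lists carry no counts of reads. The absence of a peak means that none was called there, not that the chromatin was closed. All the E1 lists are longer than 3 of the 4 E0 lists, and E1 rep1 and rep2 are longer than all 4.

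Most members rest on the long E4 list. Of the 224 members, 217 had a peak in E4 rep1. For 188 of them (83.9%) E4 rep1 supplied 1 of exactly 2 E4 peaks, so that they fall below 2 E4 libraries when it is set aside. The other 36 members (16.1%) had a peak in at least 2 of E4 rep2, rep3 and rep4, and 29 of these had one in E4 rep1 as well. The pairs of E4 rep1 with rep2 (78 members) and of E4 rep1 with rep4 (77 members) were the commonest patterns, followed by E4 rep1 with rep3 (33 members). A peak in 3 E4 libraries was found at 24 members and in all 4 at 6 members. With E4 rep1 left out before merging, 35 regions met the rule. With E4 rep1 shortened to its 34863 highest-scoring peaks, the length of the longest other E4 list, 62 regions met it.

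**Figure D1:**
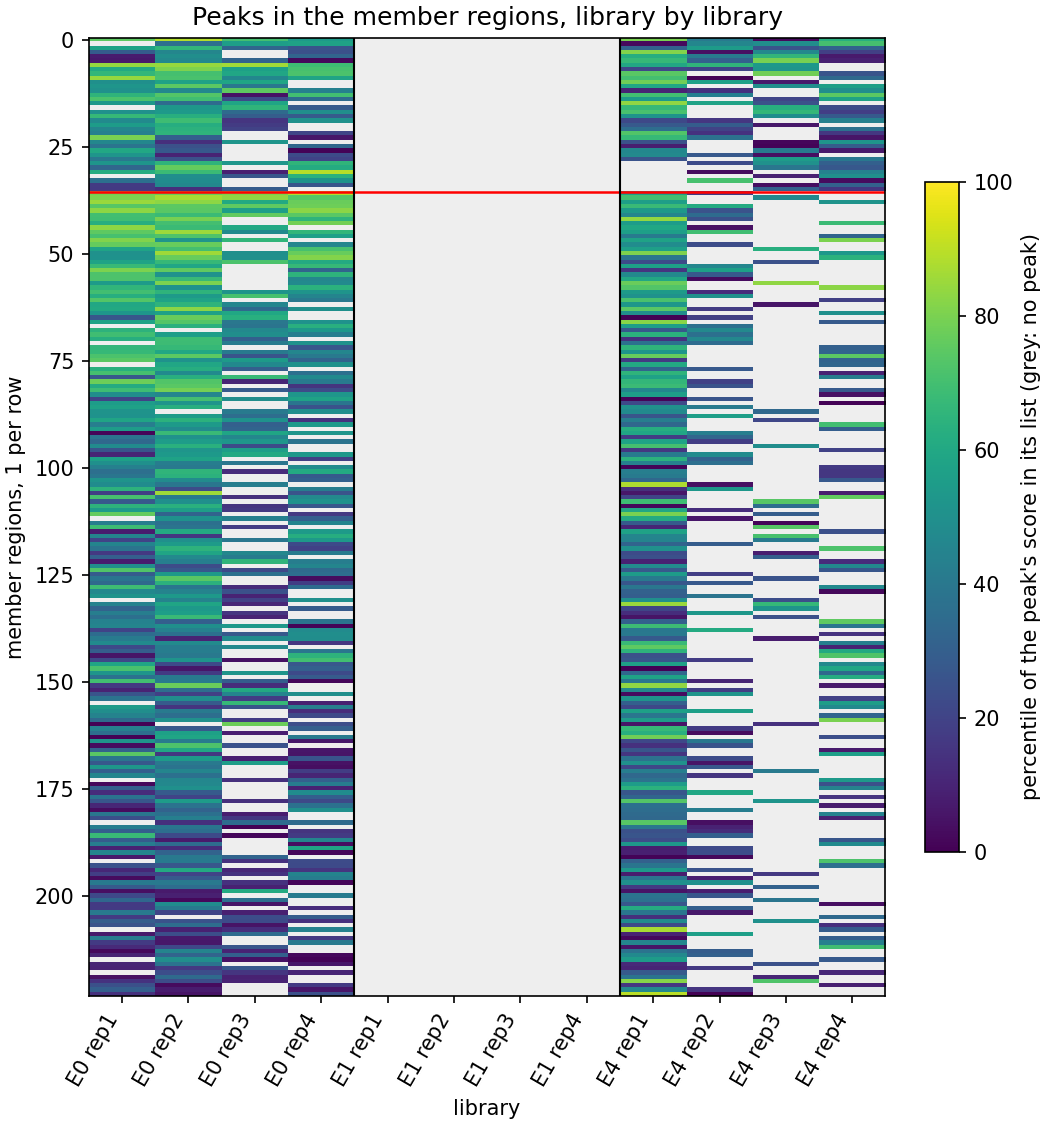
Each row is 1 of the 224 member regions and each column 1 of the 12 libraries; colour gives the percentile of the peak's score within that library's list, and grey means no peak. The 36 members above the red line had a peak in at least 2 of E4 rep2, rep3 and rep4, and the 188 below it need the peak of E4 rep1 to meet the rule.

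On the E0 side, the longer lists held more of the members than the shorter ones. All 4 E0 libraries held a peak at 68 members (30.4%) and 3 of them at 156 members. Among the 156, the missing library was E0 rep3, which has the shortest E0 list, at 85 members, E0 rep4 at 52, E0 rep1 at 15 and E0 rep2 at 4. By library, E0 rep1 held 209 members, E0 rep2 held 220, E0 rep3 held 139 and E0 rep4 held 172. The E4 libraries rep1 to rep4 held 217, 100, 60 and 107 members. The mean was 185 ± 36.9 members in E0 (SD, n = 4) and 121 ± 67.3 in E4 (SD, n = 4), and no E1 library held any, as the rule requires. The smallest pattern the rule allows, 3 E0 and 2 E4 libraries, made up 140 of the members (62.5%).

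Losing the peak in all 4 E1 lists was uncommon among baseline regions, here those with a peak in at least 3 of 4 E0 libraries. Of 36222 baseline regions, 1510 (4.17%) lacked a peak in all 4 E1 lists. Of these 1510, 224 were found again in at least 2 E4 libraries, 763 in exactly 1 and 523 in none. The members are thus 14.8% of the regions absent at E1 (95% Wilson interval 13.1 to 16.7, which covers counting error only) and 0.618% of all baseline regions.

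These shares were read against the other baseline regions, as a description with no test. Where 1 or more E1 libraries had kept the peak, 73.5% of 34712 regions had a peak in at least 2 E4 libraries. The share climbed with the number of E1 libraries that held the region, from 25.8% with 1 (2173 regions) to 40.2% with 2 (3760 regions), 58.0% with 3 (5838 regions) and 87.5% with 4 (22941 regions). The members' 14.8% is therefore the low end of a graded series. In E4 rep2, rep3 and rep4 alone, 2.38% of the regions absent at E1 had 2 or more peaks (36 of 1510, Wilson interval 1.73 to 3.28), against 5.75% with 1 E1 library and 67.6% with 4.

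**Figure D2:**
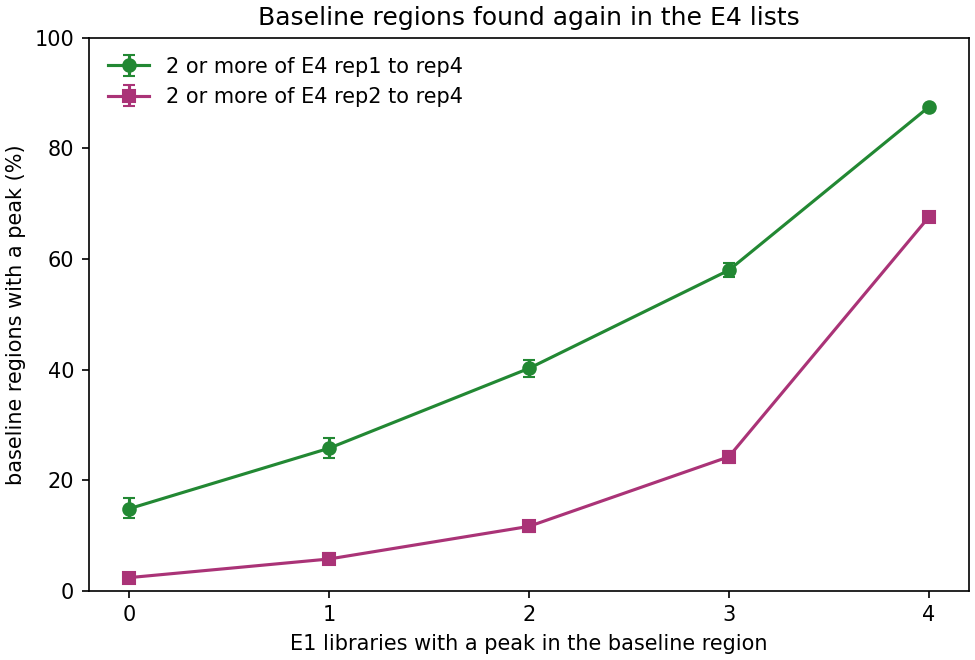
The share of baseline regions with a peak in 2 or more E4 libraries (vertical axis, percent) against the number of E1 libraries that held the region (horizontal axis), for all 4 E4 libraries (circles) and for E4 rep2 to rep4 (squares); bars are 95% Wilson intervals. The regions absent at E1 lie lowest on both lines, at 14.8% and 2.38%.

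The same order was seen in every single E4 library. E4 rep1 held 61.5% of the 1510 regions absent at E1, 81.8% of the regions with 1 E1 library and 99.7% of those with 4. In E4 rep2 the shares were 8.15%, 14.2% and 75.7%. In E4 rep3 they were 4.50%, 7.09% and 52.7%, and in E4 rep4 8.41%, 13.6% and 69.0%. E4 rep1 thus held about as large a part of the regions absent at E1 as the other E4 libraries held of regions with a peak in every E1 library, while the other 3 E4 libraries held 4.50% to 8.41% of them.

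Regions absent at E1 held low ranks in the E0 lists, and the shares are given by rank and by width as well. The sources used here do not give the scale of the score, so each peak was placed by the percentile of its score within its own list. Baseline regions were split into 3 bins of equal size by the mean of these percentiles over the E0 lists that hold them, and 168 members fell in the low bin (below 51.1), 50 in the middle bin and 6 in the high bin (above 73.01). In the low bin 13.5% of 1244 regions absent at E1 were found in at least 2 E4 libraries, against 49.2% of 10830 regions with an E1 peak. In the middle bin the shares were 19.8% of 253 and 73.2% of 11821. The high bin held only 13 regions absent at E1, of which 6 were found again (46.2%, Wilson interval 23.2 to 70.9), against 95.7% of 12061. Bins by width gave 12.2% against 48.0%, 24.4% against 76.0% and 36.6% against 94.2%, from narrow to wide. The share was lower for regions absent at E1 than for the pooled regions with an E1 peak in each of the 6 bins. Set against regions with a single E1 library, it was higher in the high rank bin, where those had 37.1% of 35 regions. In the other bins it was lower. Ranks and widths were not matched within a bin, and a merged region can be wider because more lists hold it, so the part of rank and width in the difference was not tested.

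The members ranked low in the lists that hold them. Their mean E0 percentile had a median of 39.5, with quartiles of 30.2 and 50.8, and ran from 14.7 to 81.2 over the 224. In all baseline regions the median was 61.5. It was 38.0 in the regions absent at E1 with a single E4 peak and 34.7 in those with none, so a low rank was not particular to the members. By library, the median percentile of members was 44.8 in E0 rep1, 49.6 in E0 rep2, 34.4 in E0 rep3 and 39.7 in E0 rep4, against 70.1, 75.7, 60.2 and 63.3 for all baseline regions. In the E4 lists it was 43.9, 27.7, 37.4 and 31.9 for rep1 to rep4, against 79.4, 65.7, 67.9 and 66.3. Members lay below the baseline median in each of the 8 lists. The median score of members was 67.7, 62.8 and 70.4 in E4 rep2, rep3 and rep4, where the lowest score kept in any list is 50, and 116 in E4 rep1.

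**Figure D3:**
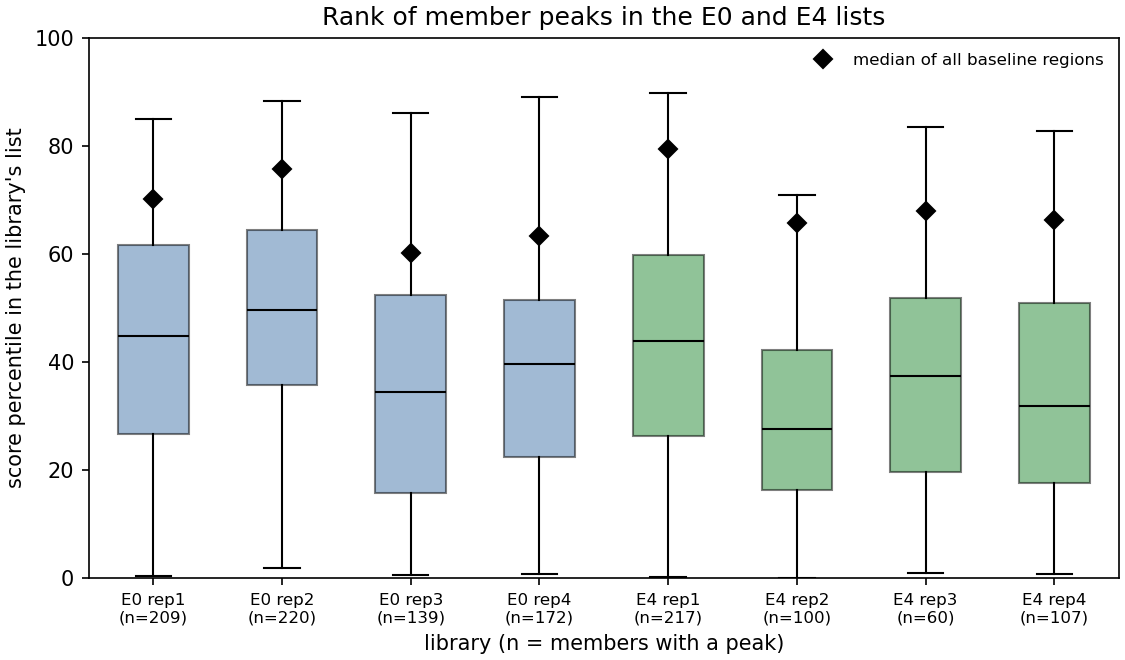
Score percentiles of member peaks (vertical axis) in each E0 and E4 library (horizontal axis, with the number of members that have a peak there); boxes span the quartiles, the line is the median and whiskers reach the lowest and highest value. Diamonds mark the median of all baseline regions, which lies above the upper quartile of the members in all 8 libraries.

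Set beside their own E0 rank, members stood at a like rank in E4 rep1 and at a lower one, by the median, in the other 3 E4 lists. In E4 rep1 the percentile was above the member's mean E0 percentile at 114 of 217 members, with a median difference of 1.31 percentile points. Baseline regions with an E1 peak were higher in that list at 81.2% of 33794 regions, with a median difference of 9.15. In E4 rep2 the members' percentile was higher at 27 of 100 (median difference -14.7), in E4 rep3 at 25 of 60 (median difference -7.37) and in E4 rep4 at 40 of 107 (median difference -6.38). Baseline regions with an E1 peak stood lower in these 3 lists too, with median differences of -6.10, -8.91 and -6.32, so a lower rank there was not particular to the members. The percentiles come from lists of different lengths, so these differences place the members among the other peaks and do not measure a change in accessibility.

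Members were narrow. The merged region had a median width of 564.5 bp, with quartiles of 475 and 717.75 bp and a range of 279 to 2465 bp, against a median of 815 bp for all baseline regions. The single peaks of members had a median width of 371, 418.5, 261 and 289 bp in E0 rep1 to rep4, and of 458, 247, 235.5 and 220 bp in E4 rep1 to rep4. For all peaks of these lists the medians were 372, 400, 294 and 319 bp in E0, and 431, 302, 253 and 266 bp in E4. Member peaks were thus wider than the list median in E0 rep2 and E4 rep1, about equal in E0 rep1 and narrower in the other lists. Regions absent at E1 with a single E4 peak had a median merged width of 493 bp, and those with none 421 bp, so merged width went up with the number of lists that hold the region. Part of that is built in, since more peaks can widen a merged region.

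At most members the E0 and E4 peaks had a stretch of bases in common, which was a part of the region. An E0 peak and an E4 peak shared at least 1 bp at all 224 members. Merging makes this certain, since a member is joined from overlapping E0 and E4 peaks only. At 206 members at least 1 bp lay under 3 E0 and 2 E4 peaks at once, and 100 bp or more did at 183. Over all members the shared stretch had a median of 182 bp, and its share of the region a median of 32.1%. At the other 18 members the peaks were joined into 1 region without such a common stretch. Around the middle of the members, 75.4 ± 19.1% of members lay under a peak in the E0 libraries (SD, n = 4) and 94.2% in E4 rep1, against 22.3% in the lowest E4 library.

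E1 peaks lay near some members although none lay in them. The gap from a member to the nearest peak of any E1 library had a median of 2604.5 bp. It was 1 kb or less at 60 members (26.8%), and at 18 of these all 4 E1 libraries had a peak that close. An E1 peak lay within 1 kb of 20.4% of the regions absent at E1 with a single E4 peak, 18.5% of those with none and 22.3% of the regions with 2 E0 libraries that otherwise met the rule. Of the 60, 8 had an E1 peak within 100 bp, and the smallest gap was 4 bp. At a distance of 1000 bp on either side of the middle, a peak of an E1 library lay over 3.13 ± 1.41% (upstream by coordinate) and 4.02 ± 1.09% (downstream) of members (SD, n = 4 libraries). There the E0 libraries had 1.23 ± 0.43% and 2.34 ± 1.76%, and the E4 libraries 2.46 ± 3.19% and 3.24 ± 3.81%. Without the members that have an E1 peak within 1 kb, 164 remained, and the share of regions absent at E1 that were found again was 13.7%.

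**Figure D4:**
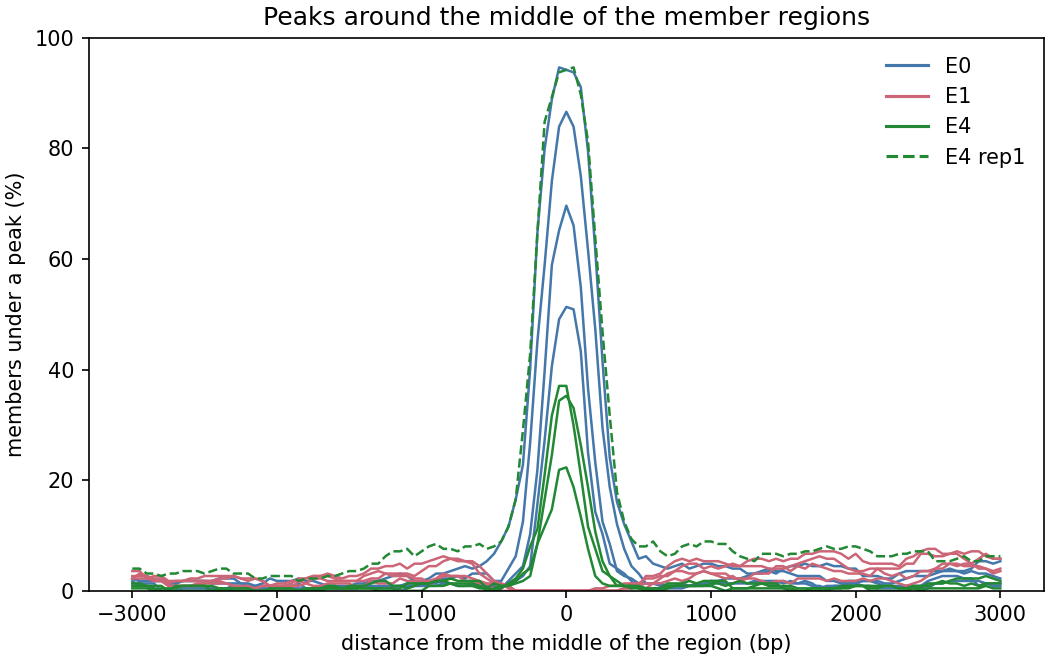
The share of the 224 members under a peak (vertical axis, percent) at each distance from the middle of the region (horizontal axis, bp), 1 line per library. E0 lines and the dashed E4 rep1 line peak over the middle, the other 3 E4 lines are lower, and the E1 lines are at 0 there by the rule.

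Members lay on all 20 chromosomes considered, in numbers that broadly followed the baseline regions. Chromosome 1 held 22 members (9.82%, against 8.35% of baseline regions), chromosome 3 held 21 (9.38% against 6.89%) and chromosome 18 held 14 (6.25% against 4.54%). Chromosome 8 held 6 (2.68% against 5.60%) and chromosome X held 5 (2.23% against 2.96%). Members were scattered: the gap to the nearest other member had a median of 3443 kb, 39 members had another within 1 Mb and 10 had one within 50 kb. The closest pair was chr12:118145718-118146301 and chr12:118158082-118158894 (mm9), 11780 bp apart. The second of that pair has no base under 3 E0 and 2 E4 peaks at once.

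Regions gained at E1, that is with a peak in all 4 E1 libraries and none in E0, lay within 50 kb of 70 members (31.3%), against 25.6% of all baseline regions. The share was 29.8% of the regions absent at E1 with a single E4 peak, 26.4% of those absent at both E1 and E4, and 29.3% of the regions with a peak in a single E1 library and at least 2 E4 libraries. Among the 36 members that hold without E4 rep1 it was 47.2% (17 members), and among the 188 that rest on E4 rep1 28.2%. At 10 kb the shares were 9.38% of members, 6.77% of baseline regions, 9.57% with a single E4 peak, 7.65% with none and 10% with a single E1 library, and 8.33% of the 36 members (3 of them). In the regions with 2 E0 libraries that otherwise met the rule, the shares were 23.9% at 50 kb and 6.80% at 10 kb. The shares of the regions most like the members lay below the members' share at 50 kb and on either side of it at 10 kb. These differences were not tested.

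The members highest in the E0 lists ranked lower in most E4 lists that hold them, which their choice by E0 rank favours. They were led by chr4:51691875-51692479 (mm9, 605 bp). Its percentile was 78.6, 77.0, 80.2 and 88.9 in E0 rep1 to rep4, then 56.6 in E4 rep1 and 16.8 in E4 rep2, with no peak in E4 rep3 and rep4. The nearest E1 peak was 4251 bp away. All 4 E0 values lay above both E4 values.

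The next was chr2:80434333-80435230 (898 bp). Its percentile was 84.3, 84.5, 86.0 and 69.1 in E0 rep1 to rep4, and 60.01, 65.5 and 53.2 in E4 rep1, rep2 and rep3. It had no peak in E4 rep4, and its nearest E1 peak was 1783 bp away. Its scores ran from 129.35 to 337.45 in E0 and from 71.7 to 178 in E4. Of its 898 bp, 367 lay under 3 E0 and 2 E4 peaks at once.

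On chromosome 14 there were a pair of leading members. At chr14:114640567-114641176 (610 bp) the E0 percentiles were 80.4, 86.8, 83.2 and 73.5, and the E4 percentiles 70.0 in rep1 and 46.9 in rep3. At chr14:10706738-10707288 (551 bp) they were 84.9, 83.2, 60.9 and 77.3 in E0, and 56.2 in E4 rep1 and 51.5 in E4 rep4. E0 values lay above E4 values at both.

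Some of the leading members lay close to an E1 peak. At chr3:37189741-37190417 (677 bp) the E0 percentiles were 74.1, 74.8, 75.4 and 77.8, and the E4 percentiles 67.9 in rep1 and 61.0 in rep2, while 2 E1 libraries had a peak within 1 kb, the nearest 529 bp away. At chr6:76927718-76928308 (591 bp) the gap to an E1 peak was 65 bp. There the E0 percentiles were 83.0, 74.6, 56.1 and 82.7, and the E4 percentiles 54.0 in rep1 and 25.4 in rep2.

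The other four of the 10 ranked highest in E0 were chr5:51750240-51750779, chr13:76316009-76316637, chr2:158142744-158143256 and chr13:103723743-103724217, with mean E0 percentiles of 72.1, 72.0, 71.3 and 70.6. The region at 158142744 on chromosome 2 had the highest single E4 percentile among the 10, 83.6 in E4 rep1, and 24.2 in E4 rep2. Of these 10 members, 8 had a peak in E4 rep1 and in just a single other E4 library.

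A peak in all 4 E0 and all 4 E4 libraries with none in E1, the fullest form of the pattern, was found at 3 members. At chr13:76316009-76316637 (629 bp) the percentiles were 75.2, 88.3, 70.3 and 54.3 in E0 rep1 to rep4 and 80.1, 41.1, 2.65 and 63.0 in E4 rep1 to rep4. E0 and E4 values overlapped there, and 2 E1 libraries had a peak within 1 kb, the nearest 623 bp away. At chr14:15426350-15426778 (429 bp) they were 58.1, 65.9, 32.5 and 26.0 in E0 and 31.9, 54.8, 25.6 and 31.7 in E4, with an E1 peak 523 bp away. At chr4:46805401-46806001 (601 bp) they were 7.01, 47.1, 31.9 and 2.08 in E0 and 66.8, 30.9, 79.6 and 9.20 in E4, with the nearest E1 peak 1101 bp away. E0 and E4 values overlapped at all 3, and the last ranks near the bottom of E0 rep1 and rep4.

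Among the 36 members that hold without E4 rep1, those with the highest percentiles in E4 rep2, rep3 and rep4 were chr2:80434333-80435230 (mean 59.3), chr4:87512381-87512900 (58.9), chr14:13370134-13370412 (55.2), chr3:90250196-90251157 (52.6) and chr4:84587861-84588396 (52.1). At chr4:87512381-87512900 (520 bp) the E0 percentiles were 65.1, 73.3, 4.81 and 69.6, and the E4 percentiles 69.9 in rep1, 43.2 in rep2 and 74.7 in rep4. Its nearest E1 peak was 11619 bp away. At chr4:84587861-84588396 (536 bp) they were 66.3, 70.5, 59.3 and 71.7 in E0 and 74.5, 78.4 and 25.8 in E4 rep1, rep3 and rep4, and no E1 library had a peak within 56753 bp. At the first, 1 E4 value lay above all E0 values and the others within their range. At the second, 2 E4 values lay above all E0 values and 1 below them. The choice of these members by rank in E4 rep2, rep3 and rep4 favours high values there.

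The narrowest member, chr14:13370134-13370412 (279 bp), was found in all 4 E4 lists. Its E4 percentiles were 2.62 in rep1 and 46.1, 49.0 and 70.6 in rep2, rep3 and rep4, so the longest list holds it near its lower limit. In E0 it had a peak in rep2, rep3 and rep4, at percentiles 36.7, 56.2 and 57.7. At chr3:90250196-90251157 (962 bp) they were 52.2, 74.6 and 39.6 in E0 rep1, rep2 and rep3 and 59.1, 49.3 and 56.0 in E4 rep1, rep3 and rep4.

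The 3 widest members were chr19:10530647-10533111 (2465 bp), chr2:25142340-25144022 (1683 bp) and chr4:6314393-6315818 (1426 bp). Only 240, 259 and 203 bp of them lay under 3 E0 and 2 E4 peaks at once. Their mean E0 percentiles were 55.2, 29.5 and 44.9, where the median over all members was 39.5.

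In the sets on either side of the rule's limits the median E0 percentile ran from 32.7 to 44.8, and the median width from 478 to 602.5 bp. Just inside, the 140 members with 3 E0 and 2 E4 libraries had a median E0 percentile of 37.3 and a median width of 544.5 bp. Just outside were 309 regions with 2 E0 libraries (median percentile 32.7, width 478 bp), 560 with a peak in a single E1 library (44.2 and 602.5 bp) and 763 with a single E4 peak (38.0 and 493 bp). E4 rep1 held 96.4%, 95.5%, 98.9% and 93.3% of these 4 sets in turn. The 54 members with 4 E0 and 2 E4 libraries, also inside, had a median percentile of 44.8 and a median width of 582 bp. E4 rep1 held 98.1% of them.

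The same rule was also counted with the groups exchanged. With at least 3 libraries of the first group, none of the second and at least 2 of the third, the order E0, E1, E4 gave the 224 members. The order E4, E1, E0 gave 59 regions, E0, E4, E1 gave 379, E1, E4, E0 gave 430, E4, E0, E1 gave 1057 and E1, E0, E4 gave 3304. With every list shortened to its 24426 highest-scoring peaks, the order E0, E1, E4 gave 610 regions and E4, E1, E0 gave 317, while E1, E0, E4 gave 1949, E4, E0, E1 gave 1239, E0, E4, E1 gave 389 and E1, E4, E0 gave 274. The order E0, E1, E4 was thus the second lowest of the 6 counts as deposited, and the third highest with lists of equal length. The order E4, E1, E0, which also asks for peaks at E0 and E4 but not at E1, was the lowest and the second lowest.

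The regions behind those numbers were mostly not the same. Of the 610 regions found with lists of equal length, 6 (0.984%) overlapped 1 of the 224 members, and 6 of the 224 (2.68%) overlapped 1 of the 610. In the deposited lists, 604 of the 610 (99.0%) had a peak in at least 1 E1 library, and 264 (43.3%) had one in all 4. E4 rep1 was needed for 257 of the 610, and 353 (57.9%) held without it.

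The number of members also moved with other single libraries by more than 1.5 times. It was 83 without E0 rep1, 73 without E0 rep2 and 120 without E0 rep4, where all 3 remaining E0 libraries had to hold a peak. It was 429 without E1 rep1 and 412 without E1 rep2, where 3 E1 libraries had to lack one. It was 145 without E4 rep2 and 141 without E4 rep4. Allowing a peak in 1 E1 library gave 784 regions, and asking for 3 E4 libraries gave 30.

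**Figure D5:**
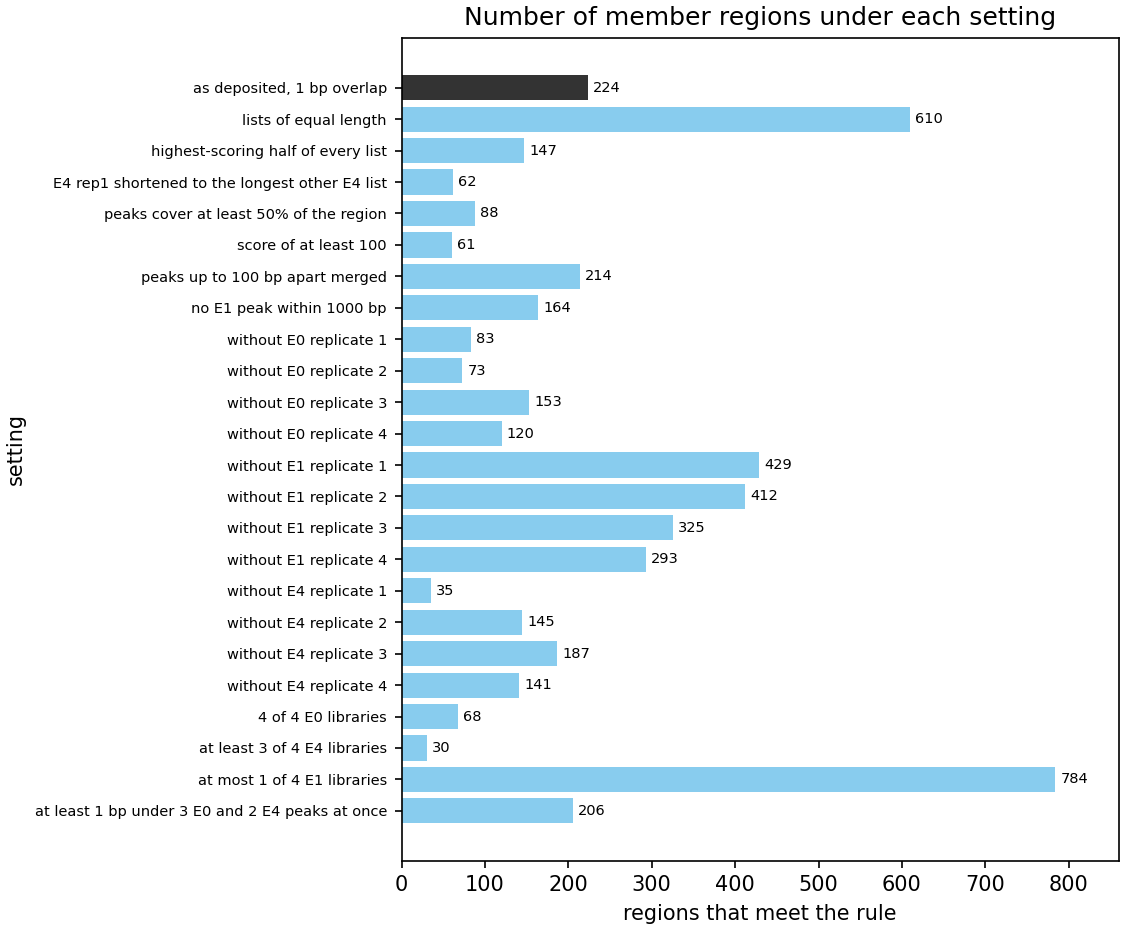
The number of regions that meet the rule (horizontal axis) under each way of building or choosing the regions (vertical axis), with the lists as deposited in black. Counts run from 30, with 3 E4 libraries asked for, to 784, with 1 E1 library allowed a peak.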

How the data were processed

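ATAC-seq peaks of 12 libraries were grouped by the sample titles as E0, E1 and E4, with 4 replicates each. Each deposited list was called on a single library and gives each peak a score, the authors' own value. The names of peaks have a MACS prefix, per the file contents, and the submitters' processing notes name Bowtie2 and mm9. The caller's version, control and threshold, the read shift and the handling of duplicates were not given in the sources used here, where a lenient duplicate filter or deeper sequencing would lengthen a list.

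Peaks on chromosomes 1 to 19 and X were merged where they shared 1 bp (bedtools 2.31.1 gave the same 170710 regions), and a library held a region if 1 bp of its peaks lay in it. Scores became percentiles within each list, with the highest peak of a region used. Gaps run between edges, and coordinates are mm9, written from 1. No test was made. The 95% Wilson intervals (scipy 1.17.1) treat regions as independent. Merging and the rule were tested on simulated peaks.

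Named were the 10 members highest by mean E0 percentile, those in 4 of 4 E0 and 4 of 4 E4 libraries, the 5 highest in E4 rep2, rep3 and rep4 among members in at least 2 of these, the 3 widest and the closest pair. The narrowest member and the example chromosomes were picked after their values were seen. The members, the rule and these lists were chosen with earlier results of these data known. Planned gene, promoter and motif descriptions need mm9 annotation or sequence and were left out. Alternatives are given in the closing section.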

Additional observations from a re-analysis of the deposited data

Results flagged for a closer look

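Each value was compared over the 4 libraries of a group, and a library is given here when its gap to the nearest of the others took up a larger part of the group's range than Dixon's 95% critical value for 4. Chance gives about 1 such group in 20, and 7 of 30 groups checked met it. E4 rep1 accounts for 4 of them: its list of 104120 peaks, its 61.5% share of the baseline regions absent at E1, its median percentile of 79.4 for baseline regions and its median peak width of 458 bp within members all lay above the other 3 E4 libraries. The 4 values come from the same list and are not independent. The number of members it held, 217, did not meet the criterion.

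The other three are single regions in E0. At chr2:80434333-80435230 the percentile was 69.1 in E0 rep4, below the other E0 libraries. At chr4:87512381-87512900 it was 4.81 in E0 rep3, where the other E0 libraries had 65.1 to 73.3. At chr12:118145718-118146301 it was 60.9 in E0 rep2, where the others had 10.95 to 15.3.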

How the results depend on the processing

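The finding that kept its direction under all 19 settings in which it was computed is the lower share of regions found in at least 2 E4 libraries among baseline regions absent at E1 than among the other baseline regions, a description with no test. The difference ran from 25.6 percentage points, with 50% coverage, to 64.5. Both shares come from the peak calls that the rule used, and all settings rework the same lists. As deposited, regions absent at E1 also ranked lower in the E0 lists, with medians of 34.7 to 39.5 by E4 class against 62.8 for the others. The regions compared thus differ in rank as well, and the part of rank in the difference was not tested. The number of members did not hold: it stayed within 1.5 times of 224 in 7 of 23 settings and moved further in 16. No paired analysis was made, as no result comes from a test. The lists give no depth, so a missing peak may be a shallow library.

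In the order number of members, percent of regions absent at E1 found again, percent of the others found again, median E0 percentile of members and median member width, the values were 610, 26.0%, 86.5%, 71.5 and 824 bp with lists of equal length, and 61, 7.34%, 68.5%, 72.0 and 675 bp with a score of at least 100. With the 50% of each list that scored highest, they were 147, 13.2%, 75.3%, 70.5 and 689 bp. These 3 settings remove low scores, which raises the percentile by construction. With peaks covering 50% of the region the number was 88, with 5.98%, 31.5% and percentile 51.3, and with E4 rep1 shortened it was 62, with 4.10% and 64.7%. Without E1 peaks within 1 kb the others' share was 73.0%. Asking for 4 E0 libraries gave 68 members (percentile 46.9), asking for 3 E4 libraries 30 (percentile 47.0) and allowing 1 E1 library 784. Merging peaks up to 100 bp apart gave 214 members. Asking for a common stretch of 3 E0 and 2 E4 peaks, an alternative chosen after seeing the data, gave 206. Leaving out each library in turn gave 35 to 429 members, 2.30% to 19.9% of regions absent at E1, 50.2% to 84.4% of the others, percentiles from 39.4 to 46.9 and widths from 525 to 596 bp. Apart from what the settings build in, the cause was not tested.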
